A study of Mus musculus with 48 samples.

Results

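The 24 h rhythms of the tibialis anterior muscle of tumor-bearing wild-type mice were described from 12 RNA sequencing libraries, 2 mice at each of 6 circadian times (CT18, CT22, CT26, CT30, CT34, and CT38), out of 48 libraries in the series. All mice of the series were male and 39 to 55 weeks old, and these carried KPC cells, a line of murine pancreatic cancer cells injected into the pancreas. The labels give their genotype as C57BL/6J, whereas the design text of the series describes FoxP1 fl/fl mice without Cre, and they are called WT here. The values set beside them came from WT control mice, which had a sham injection of saline, and from FoxP1SkmKO mice with and without KPC tumors. FoxP1SkmKO mice are Foxp1 fl/fl with Acta1-cre, whose promoter is active in skeletal muscle fibers. Lights came on at 6 in the morning until the mice were moved to constant darkness, and tissue was taken from 18 h later on, every 4 h. CT24 to CT36 is the subjective day, in which mice rest, and CT18, CT22, and CT38 fall in the subjective night. Every gene with a mean of at least 1 FPKM (fragments counted on a gene, scaled by its transcript length and by the size of the library) in these 12 libraries was fitted with a sinusoid with a period of 24 h. This left 9985 of the 56748 genes in the table, 8995 of them protein coding. Each mouse gave 1 library, so the spread between libraries holds both animal and technical variation, and a single cycle was sampled. The libraries held 14598501 to 20787135 counts on genes (median 16431336). Libraries of the same time correlated over genes with r between 0.987 and 0.991 and those of different times between 0.977 and 0.989, and 8 of 12 were closest to the other library of their own time. Between mice of a time the chi-square per degree of freedom was 4.79 to 11.2, so no pair agreed within sampling noise.

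In mammalian cells the circadian clock is a loop of transcription factors. CLOCK and BMAL1, the latter encoded by Arntl, activate genes through E-boxes, among them the Per and Cry genes, whose proteins then repress CLOCK and BMAL1. The receptors REV-ERB (Nr1d1 and Nr1d2) and ROR act in opposite directions on Arntl through a shared DNA element, and the factors DBP, TEF, and HLF activate genes through D-boxes, which NFIL3 represses. In skeletal muscle the clock is known to time glucose and lipid metabolism and the turnover of protein.

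Promoters of 5 rhythmic clock genes show the elements of this loop, chosen as examples of each motif. Each is the RefSeq promoter of build GRCm38.p6, from 250 bases before to 50 bases after the start, written 5′ to 3′ on the strand of the gene, with the motif in capitals. For Tef and Arntl the stretch is 1 of 2 RefSeq promoters of the gene. Ciart (chromosome 3, 95882179 to 95882478, minus strand), Tef (chromosome 15, 81802423 to 81802722, plus strand), and Cry1 (chromosome 10, 85185005 to 85185304, minus strand) hold the E-box CACGTG. Per3 (chromosome 4, 151044616 to 151044915, minus strand) holds the D-box TTATGTAA, and Arntl (chromosome 7, 113207261 to 113207560, plus strand) the receptor site AGGTCA.
Ciart: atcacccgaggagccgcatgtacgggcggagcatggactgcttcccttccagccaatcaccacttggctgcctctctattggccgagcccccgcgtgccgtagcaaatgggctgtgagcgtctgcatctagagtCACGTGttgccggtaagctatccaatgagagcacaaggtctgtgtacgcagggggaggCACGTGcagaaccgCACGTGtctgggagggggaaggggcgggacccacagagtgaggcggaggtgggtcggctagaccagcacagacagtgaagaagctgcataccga
Tef: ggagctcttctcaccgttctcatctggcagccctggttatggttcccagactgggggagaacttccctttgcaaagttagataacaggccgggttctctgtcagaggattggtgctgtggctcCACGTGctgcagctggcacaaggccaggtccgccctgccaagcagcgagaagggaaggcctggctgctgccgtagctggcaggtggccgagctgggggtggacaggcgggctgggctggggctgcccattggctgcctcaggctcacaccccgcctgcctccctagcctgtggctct
Cry1: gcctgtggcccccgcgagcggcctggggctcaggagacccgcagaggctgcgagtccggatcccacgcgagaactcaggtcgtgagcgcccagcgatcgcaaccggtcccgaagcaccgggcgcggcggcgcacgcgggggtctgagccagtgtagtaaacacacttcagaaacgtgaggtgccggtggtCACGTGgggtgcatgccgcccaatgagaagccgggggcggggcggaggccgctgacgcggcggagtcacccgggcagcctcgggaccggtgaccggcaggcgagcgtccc
Per3: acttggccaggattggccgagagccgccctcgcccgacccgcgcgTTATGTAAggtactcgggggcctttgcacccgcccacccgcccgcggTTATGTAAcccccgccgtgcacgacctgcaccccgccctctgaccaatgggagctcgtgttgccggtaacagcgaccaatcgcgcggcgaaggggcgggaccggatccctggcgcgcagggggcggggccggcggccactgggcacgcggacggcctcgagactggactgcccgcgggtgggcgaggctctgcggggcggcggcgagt
Arntl: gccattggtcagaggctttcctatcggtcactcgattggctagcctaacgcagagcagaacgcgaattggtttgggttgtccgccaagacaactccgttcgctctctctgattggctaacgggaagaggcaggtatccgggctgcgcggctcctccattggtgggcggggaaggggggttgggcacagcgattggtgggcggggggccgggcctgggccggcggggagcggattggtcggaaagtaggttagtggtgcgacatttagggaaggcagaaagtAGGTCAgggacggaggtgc
The 3 E-boxes of Ciart begin at -116, -58, and -44 from the start, that of Tef at -127, and that of Cry1 at -60. The D-boxes of Per3 begin at -205 and -158, and the receptor site of Arntl lies 31 bases after the start. These promoters belong to genes that peaked at CT32.0 (Ciart), CT32.8 (Tef), CT18.1 (Cry1), CT33.1 (Per3), and CT22.2 (Arntl).

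An F test of the cosine and sine terms (2 and 9 degrees of freedom, over the 12 libraries) asked whether each gene followed a 24 h rhythm. At an unadjusted p under 0.01, the threshold of the study, 882 genes (8.83% of those tested) were rhythmic in WT KPC muscle. A Benjamini-Hochberg adjusted p under 0.05 left 356 genes (3.57%). Leaving out 1 library at a time gave 614 (without CT34 replicate 2) to 915 genes at the first threshold and 103 (without CT34 replicate 2) to 339 genes at the second. For the same 9985 genes, 1051 (10.5%) were rhythmic in WT control, 558 (5.59%) in FoxP1SkmKO KPC, and 923 (9.24%) in FoxP1SkmKO control mice, counts that do not test a difference between the groups. The amplitude, taken as the distance from the fitted mean to the fitted peak, was small for most of the 882 genes. Its median was 16.4% of the mean (quartiles 11.5% and 27.4%), against 7.60% over all tested genes, and it reached at least 50% in 58 genes and stayed under 10% in 149. The fitted peak had a median standard error of 0.771 h. The gene nearest to the threshold inside it was Cdon (p = 0.00998, n = 12), and the nearest outside it was Bgn (p = 0.0100011, n = 12).

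The 3 genes of lowest p belonged to the clock lists, and 7 of the 20 protein-coding genes of lowest p did. The leading genes were Nr1d1, Per2, and Usp2, all with an adjusted p of 0.00114 from the F test. Nr1d1 (ENSMUSG00000020889, chromosome 11 of mm39, 98658758 to 98666159, minus strand), the gene of the repressor REV-ERB alpha, had 20.4 and 17.9 FPKM at CT18, 35.6 and 40.6 at CT22, 62.3 and 70.0 at CT26, 55.0 and 60.0 at CT30, 31.8 and 27.8 at CT34, and 12.0 and 6.07 at CT38. It was highest in the early subjective day and lowest at CT38, and no library of CT26 or CT30 overlapped with one of another time. Its amplitude was 28.2 ± 1.74 FPKM (SE) around a mean of 36.6 FPKM, with a peak at CT27.2 ± 0.236 h. Per2 (ENSMUSG00000055866, chromosome 1 of mm39, 91343704 to 91387046, minus strand), a core repressor, had 2.24 and 1.70 FPKM at CT18, 0.992 and 0.886 at CT22, 0.969 and 1.02 at CT26, 4.19 and 3.47 at CT30, 5.55 and 5.83 at CT34, and 4.69 and 4.27 at CT38. It was lowest at CT22 and CT26 and highest at CT34, with an amplitude of 2.52 ± 0.159 FPKM (SE), 84.4% of its mean, and a peak at CT34.7. Usp2 (ENSMUSG00000032010, chromosome 9 of mm39, 43978318 to 44006924, plus strand), a deubiquitinase reported to act on clock proteins, had 35.4 and 34.3 FPKM at CT18, 27.4 and 26.1 at CT22, 30.5 and 28.7 at CT26, 50.6 and 46.5 at CT30, 52.7 and 54.4 at CT34, and 53.6 and 49.9 at CT38. The libraries of CT30, CT34, and CT38 all lay above those of the other times, and the fitted peak was CT34.6.

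Among the activators, Arntl (ENSMUSG00000055116, chromosome 7 of mm39, 112806672 to 112913333, plus strand) had 3.32 and 2.995 FPKM at CT18, 3.52 and 4.55 at CT22, 3.20 and 3.70 at CT26, 1.44 and 1.42 at CT30, 0.770 and 0.949 at CT34, and 0.940 and 2.03 at CT38. Its libraries of CT18 to CT26 lay above every library of CT30 to CT38, and it peaked at CT22.2 ± 0.377 h, nearly opposite to Per2. Clock (ENSMUSG00000029238, chromosome 5 of mm39, 76357715 to 76452639, minus strand), its partner, had 2.33 and 1.98 FPKM at CT18, 1.99 and 2.09 at CT22, 2.25 and 2.00 at CT26, 1.96 and 1.93 at CT30, 1.38 and 1.34 at CT34, and 1.02 and 0.944 at CT38. It stayed level from CT18 to CT30 and was low at CT34 and CT38. Its rhythm had p = 0.00581 (n = 12) but did not pass the adjustment (adjusted p = 0.0866), and the sinusoid missed its time course (p = 0.00463 for the departure, an F test with 3 and 6 degrees of freedom). With 1 coefficient per time in place of the sinusoid, Clock had p = 0.000451 (n = 12) and its highest mean at CT18. With 1 library fewer, its call was lost (p up to 0.0175, n = 11) without CT22 replicate 2, CT26 replicate 1, or any single library of CT34 or CT38. Such a departure at p under 0.05 was found for 90 of the 882 genes (10.2%) and for 14.2% of all tested genes.

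Of the 8 tested repressors, 6 were rhythmic, and all 6 passed the adjustment. Per1 peaked at CT34.2 with an amplitude of 61.5% of its mean, Cry2 at CT34.2 with 28.9%, and Per3 at CT33.1 with 44.9%. Ciart (ENSMUSG00000038550, chromosome 3 of mm39, 95785815 to 95789563, minus strand), which encodes a repressor of CLOCK and BMAL1, had 0.845 and 0.399 FPKM at CT18, 0.269 and 0.501 at CT22, 1.17 and 0.516 at CT26, 4.30 and 4.39 at CT30, 3.68 and 4.54 at CT34, and 0.897 and 0.850 at CT38. It was high at CT30 and CT34 and low at all other times, and its highest time mean was 11.3 times the lowest. No other gene with an adjusted p under 0.05 had a larger amplitude relative to its mean (115%), a value above 100% where the fitted curve passes below 0 at its trough, and its time course departed from the sinusoid (p = 0.00233, n = 12). Cry1 (ENSMUSG00000020038, chromosome 10 of mm39, 84967564 to 85020928, minus strand) ran late, with 6.85 and 7.33 FPKM at CT18, 6.76 and 6.91 at CT22, 5.30 and 5.07 at CT26, 3.73 and 5.08 at CT30, 5.15 and 5.56 at CT34, and 6.31 and 6.68 at CT38. It was highest at CT18 and CT22, with the lowest mean at CT30, and its peak, CT18.1, was that of the start of sampling, well apart from those of Per1, Per2, and Cry2. The related repressors Bhlhe40 (p = 0.0917) and Bhlhe41 (p = 0.146) did not pass (n = 12). Both passed in WT control mice (p = 0.00250 and p = 0.000199, n = 12), and the difference in rhythm between the groups had p = 0.313 and p = 0.169 (n = 24).

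**Figure D1:**
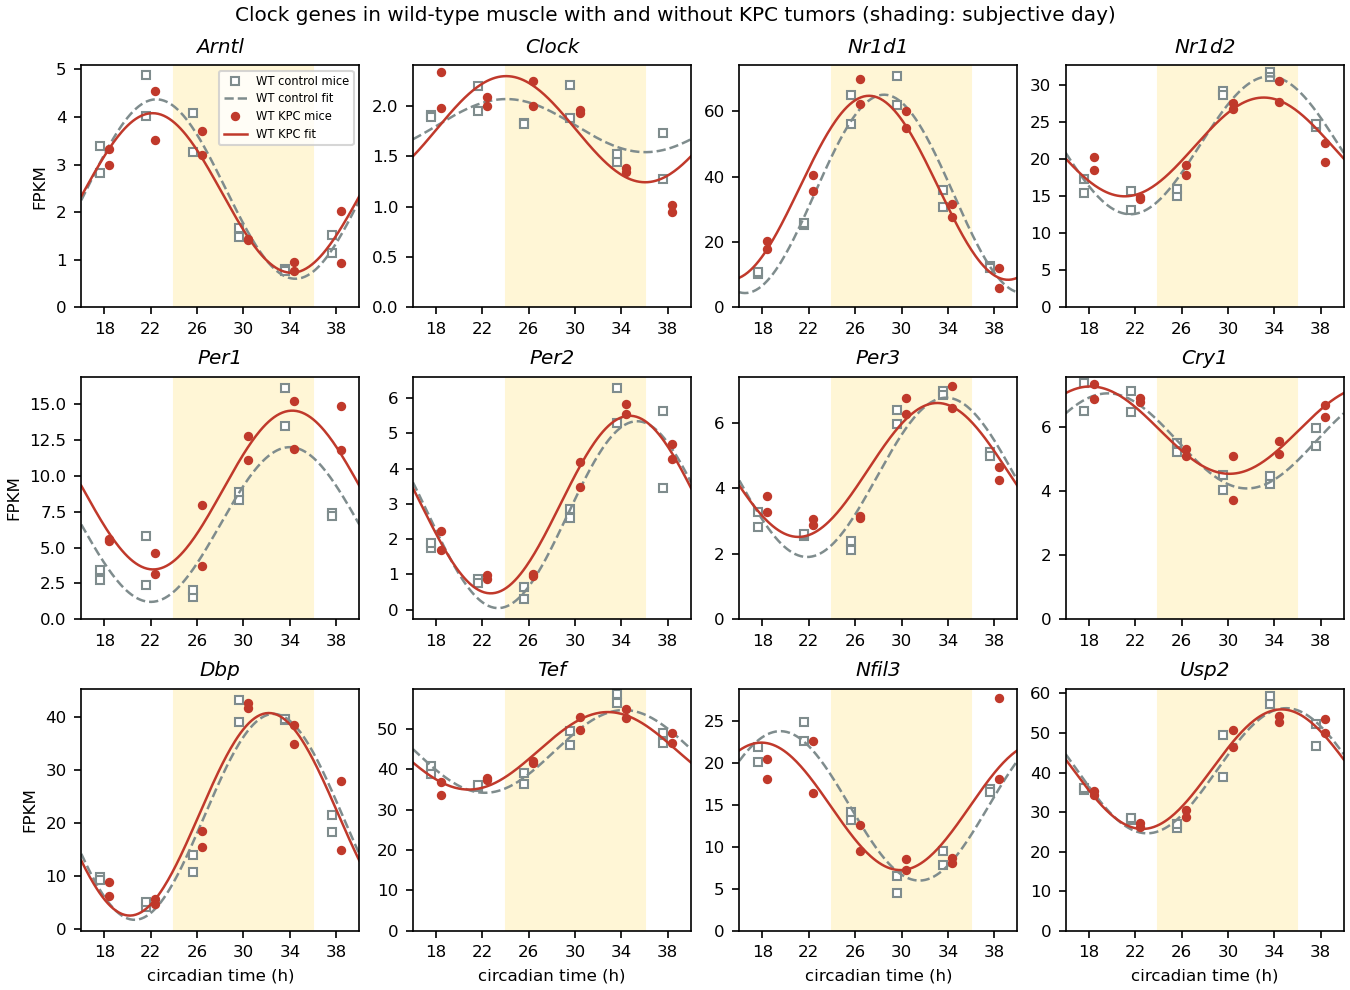
FPKM of 12 clock genes against circadian time (h) in WT KPC (filled points, solid fit) and WT control mice (open points, dashed fit). Each point is 1 mouse, lines are the fitted 24 h sinusoids, and shading marks the subjective day; Nr1d1 peaked at CT27.2, Dbp at CT32.2, Per2 at CT34.7, and Arntl at CT22.2 in WT KPC mice.

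The receptors of the second loop differed among themselves. Nr1d2, the paralog of Nr1d1, peaked at CT33.1 and so later in the subjective day than Nr1d1, with a range of 14.6 to 30.5 FPKM. The activator Rora did not pass (p = 0.0341, n = 12). All 4 genes of the D-box factors were rhythmic. Dbp (ENSMUSG00000059824, chromosome 7 of mm39, 45354512 to 45359627, plus strand) had 6.16 and 8.76 FPKM at CT18, 5.71 and 4.65 at CT22, 18.5 and 15.5 at CT26, 41.7 and 42.6 at CT30, 38.4 and 34.9 at CT34, and 27.9 and 14.9 at CT38. Its libraries of CT30 and CT34 lay above all others, with a peak at CT32.2 and an amplitude of 88.4% of the mean. Tef ranged from 33.5 to 54.9 FPKM (peak CT32.8, adjusted p = 0.00646 from the F test), and Hlf peaked at CT33.1 with an adjusted p of 0.0740. Nfil3, the repressor at the same sites, had 20.4 and 18.1 FPKM at CT18, 16.4 and 22.6 at CT22, 9.54 and 12.6 at CT26, 8.62 and 7.23 at CT30, 8.03 and 8.73 at CT34, and 18.1 and 27.7 at CT38. It was highest at CT38, CT18, and CT22 and lowest at CT30 and CT34, where Dbp was highest, with a peak at CT41.9 (p = 0.00434, n = 12, adjusted p = 0.0765). Of 12 tested kinases, ligases, and other clock-linked genes, 4 were rhythmic: Usp2, the glucocorticoid-responsive repressor Klf9 (CT35.1), the deadenylase gene Noct (CT38.5), and Nampt (CT33.7), the rate-limiting enzyme of NAD salvage. Csnk1d, Csnk1e, Btrc, Gsk3b, Klf10, Klf15, and Wee1 were among those that did not pass.

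Beyond the clock, the protein-coding genes with the lowest p fell into a set with peaks between CT32 and CT38 and a set with peaks between CT18 and CT26. Hk2 (ENSMUSG00000000628, chromosome 6 of mm39, 82702006 to 82751435, minus strand), the hexokinase that traps glucose in muscle, had 80.5 and 87.8 FPKM at CT18, 71.9 and 71.5 at CT22, 74.2 and 77.7 at CT26, 89.7 and 83.6 at CT30, 99.3 and 99.6 at CT34, and 99.2 and 101 at CT38. It was lowest at CT22 and highest at CT34 and CT38, with a peak at CT35.6 and an amplitude of 15.1 ± 1.15 FPKM (SE), 17.4% of the mean. Kpna2 (importin alpha, CT34.0), Ppm1b (a protein phosphatase, CT32.3), Golga4 (a golgin, CT32.4), Acvr1b (an activin type I receptor, CT37.4), and Tle4 (a corepressor, CT37.9) belonged to the first set. Acvr1b had the largest amplitude of these relative to its mean (30.2%), from 16.8 to 34.2 FPKM. The second set held Miga2 (a mitochondrial outer membrane protein, CT21.8), Abtb2 (CT22.2), Scamp2 (a secretory carrier protein, CT23.3), Auts2 (CT23.7), Lingo3 (CT23.9), and the amino acid transporters Slc38a2 (CT18.2) and Slc38a4 (CT25.6). Miga2, with an amplitude of 44.3% of its mean, had 6.13 and 7.17 FPKM at CT18, 8.48 and 8.49 at CT22, 6.67 and 7.21 at CT26, 3.51 and 4.61 at CT30, 3.44 and 3.12 at CT34, and 4.51 and 5.08 at CT38, and each library of CT18 to CT26 lay above each of the other times. The adjusted p of these 20 genes, clock members included, lay between 0.00114 and 0.00798 (Benjamini-Hochberg, F test).

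In FPKM, the 10 largest amplitudes among protein-coding genes with an adjusted p under 0.05 were those of Nr1d1, described with the clock, and of 9 other genes. Mylk4 (ENSMUSG00000044951, chromosome 13 of mm39, 32884810 to 32967937, minus strand), a myosin light chain kinase, had 294 and 291 FPKM at CT18, 212 and 215 at CT22, 183 and 185 at CT26, 238 and 268 at CT30, 394 and 415 at CT34, and 315 and 380.3 at CT38. Its highest time mean, at CT34, was 2.20 times the lowest, at CT26, and the amplitude was 103 ± 12.6 FPKM (SE). Asb2 (ENSMUSG00000021200, chromosome 12 of mm39, 103287401 to 103322260, minus strand), a ubiquitin ligase subunit known to reduce muscle mass when raised, had 323 and 337 FPKM at CT18, 348 and 376 at CT22, 340.2 and 388 at CT26, 242 and 233 at CT30, 215 and 185 at CT34, and 259.6 and 279 at CT38. It ran in the opposite phase, with a peak at CT22.0, and its CT34 libraries were the lowest. Vdac1 (the mitochondrial outer membrane channel, amplitude 38.4 FPKM), Hsp90ab1 (a chaperone, 34.1 FPKM), Sdha (succinate dehydrogenase, 27.3 FPKM), Synm (the intermediate filament protein synemin, 21.9 FPKM), and Acadl (long-chain acyl-CoA dehydrogenase, 21.5 FPKM) peaked between CT32.3 and CT35.5. These are large in FPKM but, at 6.70% to 18.8% of the mean, small against their levels. Hbb-bs, a beta-globin gene, peaked at CT18.9 and mt-Atp8 at CT31.7. Both are uncertain, because Hbb-bs shares sequence with its neighbouring beta-globin gene and mt-Atp8 overlaps mt-Atp6. Vdac1 lost its call with limma and edgeR (p = 0.0213 and p = 0.0492, n = 12).

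The 10 largest amplitudes relative to the mean, among genes with an adjusted p under 0.05, were those of the clock genes Ciart, Dbp, Per2, Nr1d1, and Arntl and of 5 others. Pnpla3 (ENSMUSG00000041653, chromosome 15 of mm39, 84052038 to 84071437, plus strand), a lipase-like protein of lipid droplets, had 8.23 and 7.20 FPKM at CT18, 7.43 and 8.35 at CT22, 4.06 and 4.52 at CT26, 1.95 and 1.53 at CT30, 1.71 and 1.63 at CT34, and 3.42 and 8.49 at CT38. It was high at CT18 and CT22 and low at CT30 and CT34, and the mice of CT38 differed most from each other. Creb3l1 (a transcription factor of the secretory pathway, CT21.6, 67.5% of the mean), Chac1 (a glutathione-degrading enzyme of the amino acid stress response, CT33.4, 67.1%), Slc10a6 (a transporter of sulfated steroids, CT37.1, 65.7%), and C1qc (a complement component made by macrophages, CT20.3, 65.4%) had the others. Chac1 ranged from 9.37 to 48.4 FPKM, with every library of CT30 to CT38 above every library of CT18 to CT26.

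The peaks were not spread evenly over the cycle. Of the 882 rhythmic genes, 77 peaked within 2 h of CT18, 251 of CT22, 103 of CT26, 99 of CT30, 275 of CT34, and 77 of CT38. Thus 526 genes (59.6%) had a peak near CT22 or CT34, late in the subjective night and in the subjective day. The study had named these 2 times from the same samples. Leaving out 1 library at a time gave 54.2% to 66.4%. The share was 43.8% of the 1051 genes rhythmic in WT control (460 genes), 40.3% of the 558 in FoxP1SkmKO KPC (225 genes), and 40.1% of the 923 in FoxP1SkmKO control mice (370 genes). Over all 9985 tested genes, rhythmic or not, it was 44.2% in WT KPC and 35.97% in WT control mice. The differences between these shares were not tested. Both groups of peaks carried clock genes, Arntl in the first and Per1, Per2, and Cry2 in the second. The 251 genes near CT22 had larger amplitudes (median 23.1% of the mean) and lower levels (median 4.29 FPKM) than the 275 genes near CT34 (12.7% and 13.5 FPKM).

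The 2 sets also differed in base composition. The median GC content was 54.4% for the genes with a peak near CT22 and 44.9% for those near CT34, against 49.7% over all tested genes. The other groups' own rhythmic genes had a like split, with 55.4% and 43.6% in WT control mice. It was 53.7% and 45.6% in FoxP1SkmKO KPC and 54.8% and 45.3% in FoxP1SkmKO control mice. In the WT KPC libraries themselves, the mean log2 deviation of GC-rich genes (over 54.2% GC) minus that of GC-poor genes (under 45.3%) was -0.145 and -0.156 at CT34, 0.0755 and 0.102 at CT22, and between -0.123 and 0.138 at the other times. With the GC trend of each library removed, 792 genes were rhythmic, 228 of them near CT22 and 205 near CT34 (54.7% for both). With edgeR on the deposited counts, which normalises by TMM, the split over the 6 times was 141, 406, 114, 77, 226, and 115 of 1079 genes, so that CT22 then led CT34, and with TMM factors on FPKM it was 88, 296, 93, 66, 206, and 73 of 822. When the 4-h intervals were begun at the sampled times instead of centred on them, the same 882 peaks gave 161, 220, 64, 228, 160, and 49. The part of GC content in the clustering of peaks was not tested beyond these values.

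**Figure D2:**
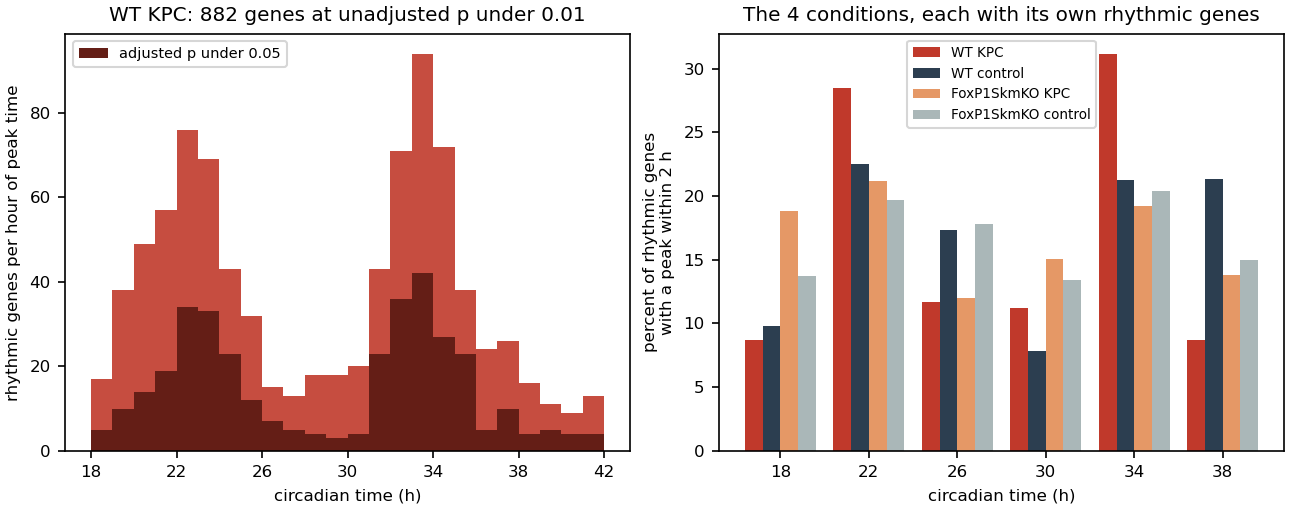
Left, number of genes per hour of fitted peak (circadian time, h) in WT KPC muscle for the 882 rhythmic genes, with the 356 of adjusted p under 0.05 in dark. Right, percent of each condition's own rhythmic genes with a peak within 2 h of each sampled time; in WT KPC mice 28.5% lay near CT22 and 31.2% near CT34.

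The functions of rhythmic genes were described with lists of genes, and the share of rhythmic members was read against the 8.83% of all tested genes. Some calls of named genes lay close to the threshold. Cblb, Stbd1, and Mrpl23 lost theirs in 10 of the 12 fits without 1 library, C3, Decr1, and Gabarap in 9, Cox4i2 in 7, Clock and Nampt in 6, and Ctsh, Eno1, and Rps6kb1 in 5. Atp6v1a, Cul2, Dnajb6, Gabarap, Lamp1, Nsun2, Pml, Psmd1, and Ulk2 lost theirs with each of limma, edgeR, and DESeq2. Of 17 tested genes described as outputs of the muscle clock, 7 were rhythmic. Besides Hk2, Coq10b (coenzyme Q binding, CT32.0, 47.5% of the mean), Pfkfb1 (a kinase that sets fructose 2,6-bisphosphate, CT35.96), and Dgat2 (the last step of triglyceride synthesis, CT38.3) had the lowest p. In glucose uptake and glycolysis, 6 of 36 members were rhythmic. Pfkfb3 (ENSMUSG00000026773, chromosome 2 of mm39, 11476244 to 11558888, minus strand), which drives glycolytic flux, had 5.93 and 10.97 FPKM at CT18, 19.8 and 20.6 at CT22, 34.3 and 67.0 at CT26, 55.0 and 35.6 at CT30, 18.5 and 46.7 at CT34, and 4.42 and 4.19 at CT38. Its time means were highest at CT26 and CT30 and its lowest libraries those of CT38, with wide spread between mice (p = 0.00281, n = 12, adjusted p = 0.0614), whereas Eno1 (enolase) peaked at CT20.1. For glycogen, 3 of 18 were rhythmic, and Epm2a (laforin, CT32.8) and Gyg (glycogenin, CT33.5) peaked near CT34 while Stbd1 (which tethers glycogen, CT23.7) peaked near CT22. The glycolysis count was 3 without CT18 replicate 2 or either library of CT30, and the muscle clock output count 4 without both CT18 libraries.

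Lipid and sterol synthesis had 6 rhythmic members of 29, 5 of them with an adjusted p under 0.05. The sterol and fatty acid regulators Srebf1 (CT22.1, adjusted p = 0.0361) and Srebf2 (CT23.3, adjusted p = 0.0175 from the F test) peaked close together at the end of the subjective night, and their inhibitor Insig1 followed at CT25.8. Srebf1 ranged from 8.12 FPKM at CT34 to 17.2 FPKM at CT22. The count for the list was 11 with edgeR. Adipocyte markers summed to between 0.531 and 32.1 FPKM in the 12 libraries, with a fitted peak of the sum at CT39.7, and their part in these rhythms was not tested. In fatty acid uptake and oxidation, 3 of 44 members were rhythmic, near the background share: Acadl, the carnitine carrier Slc25a20 (CT33.7), and Decr1 (CT34.1), a reductase for unsaturated fatty acids. This count was 6 with edgeR, 1 without CT22 replicate 2, 8 without CT22 replicate 1, and 5 without CT30 replicate 1. Among nuclear genes of oxidative phosphorylation, 5 of 96 were rhythmic, with Ndufa4l2 (CT22.4) and Cox4i2 (CT21.9), both known as hypoxia-linked subunits, near CT22 and Sdha and Atp5mpl (CT33.8) near CT34. This count was 9 with edgeR, 14 without CT22 replicate 1, 2 without CT22 replicate 2, and 3 without CT18 replicate 1 or either library of CT34. The tricarboxylic acid cycle had 1 of 22 (Sdha) and the mitochondrial genome 1 of 13 (mt-Atp8).

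**Figure D3:**
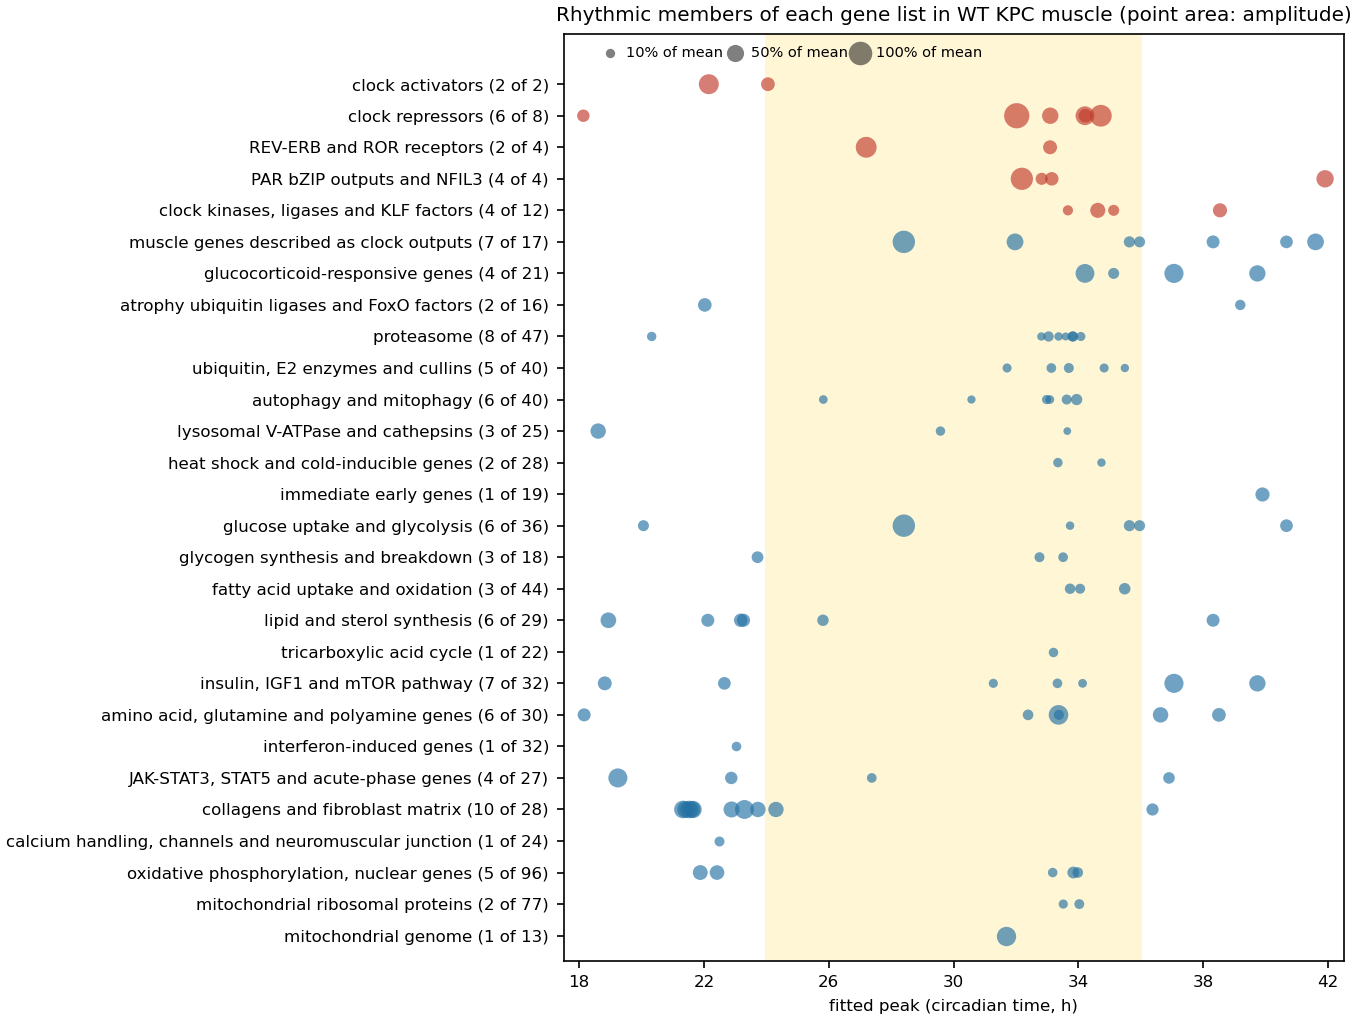
Fitted peak (circadian time, h) of the rhythmic members of each gene list with at least 1 rhythmic member in WT KPC muscle. Each point is 1 gene and its area grows with the amplitude in percent of the mean; clock lists are in red, and the count of rhythmic among tested members follows each name, as for the 6 of 8 clock repressors, 5 of which lay near CT34.

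In the degradation of protein, rhythmic genes lay mostly near CT34. Of 47 tested proteasome genes, 8 were rhythmic, 7 of them near CT34, and 1 was rhythmic in WT control and 1 in FoxP1SkmKO KPC mice. The difference in rhythm from WT control had an unadjusted p under 0.05 for 1 of the 47 (2.13%), against 7.59% of all tested genes. Psmd2 (ENSMUSG00000006998, chromosome 16 of mm39, 20470402 to 20482164, plus strand), a base subunit of the regulatory particle, had 58.1 and 60.4 FPKM at CT18, 58.5 and 59.2 at CT22, 61.8 and 65.3 at CT26, 65.2 and 65.02 at CT30, 67.0 and 68.0 at CT34, and 66.8 and 62.8 at CT38. Its highest libraries were those of CT34 and its lowest those of CT18 and CT22, an amplitude of 6.78% of the mean (adjusted p = 0.0317 from the F test). Psma3 (CT33.8), Psme4 (CT33.0), and Psmd1 (CT33.6) ran with it, at 12.7%, 13.8%, and 5.73% of their means. The number of rhythmic proteasome genes was 3 with edgeR, 4 with the GC trend removed, 5 without either of the libraries CT22 replicate 1 and CT34 replicate 2, and 2 without both CT34 libraries. Ubiquitin, its conjugating enzymes, and cullins had 5 of 40 (8 in WT control and 4 in FoxP1SkmKO KPC mice), with Ube2g1 (CT33.7, adjusted p = 0.0107), Ube2d3 (CT33.1, adjusted p = 0.0133), Ube2b (CT34.8), and Cul2 (CT35.5) leading. Cul2 lost its call with limma, edgeR, DESeq2, and TMM factors and with the GC trend removed (p up to 0.0624, n = 12). Of the 16 tested ligases and FoxO factors linked to atrophy, Asb2 and Cblb (CT39.2, p = 0.00911, n = 12) were rhythmic, and Cblb lost its call with limma (p = 0.0209), with TMM factors (p = 0.0165), and without most single libraries (p up to 0.0277).

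Autophagy and mitophagy had 6 rhythmic members of 40, 4 of them near CT34. Pik3c3 (the lipid kinase VPS34, CT33.6, adjusted p = 0.0198) and Rb1cc1 (FIP200 of the initiating complex, CT33.9, adjusted p = 0.0495 from the F test) passed the adjustment. Ulk2, an initiating kinase, peaked earlier, at CT30.6, and Gabarap, a member of the LC3 family, at CT33.1, both with amplitudes under 10% of the mean. Their adjusted p was 0.0511 and 0.104, and both lost their call with limma, edgeR, and DESeq2. The count was 3 without CT18 replicate 2, CT34 replicate 2, or either library of CT22. In the lysosome list, 3 of 25 were rhythmic, Lamp1 (CT33.6), Atp6v1a (CT29.6), and Ctsh (CT18.6), and 1 was left without CT30 replicate 1. Lamp1 and Atp6v1a lost their calls with limma, edgeR, DESeq2, and TMM factors (p up to 0.215, n = 12). The chaperone list had 2 of 28, Hsp90ab1 and Dnajb6 (CT34.7), with 5 without CT22 replicate 1 and 4 without either of CT26 replicate 1 and CT30 replicate 1. In WT control mice 3 autophagy, 0 lysosome, and 5 chaperone genes were rhythmic.

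Growth and amino acid genes gave 7 rhythmic members of 32 in the insulin, IGF1, and mTOR pathway and 6 of 30 in the amino acid, glutamine, and polyamine list. Eif4ebp2 (ENSMUSG00000020091, chromosome 10 of mm39, 61264270 to 61288440, minus strand), a repressor of cap-dependent translation, had 62.6 and 63.0 FPKM at CT18, 64.7 and 66.2 at CT22, 67.3 and 71.1 at CT26, 75.4 and 74.0 at CT30, 74.8 and 76.5 at CT34, and 67.2 and 65.5 at CT38. Its CT30 and CT34 libraries lay above all others (adjusted p = 0.0103 from the F test), whereas in WT control mice its rhythm had p = 0.939 (n = 12) and the difference in rhythm p = 0.0142 (n = 24). Pik3r1, the regulatory subunit of PI3K, peaked at CT39.7 with 44.5% of the mean, and Rps6kb1, the S6 kinase, at CT33.3. Ddit4 (REDD1), an inhibitor of mTOR that glucocorticoids raise, had 5.93 and 6.19 FPKM at CT18, 5.99 and 3.74 at CT22, 3.16 and 4.92 at CT26, 6.20 and 5.25 at CT30, 8.19 and 10.4 at CT34, and 14.6 and 16.99 at CT38. Its CT38 libraries stood above all others, a peak sharper than the sinusoid (p = 0.00435, and p = 0.00938 for the departure, n = 12). Per1, Klf9, Pik3r1, and Ddit4 were the 4 rhythmic genes of the 21 glucocorticoid-responsive ones. In WT control mice 9 of these 21 were rhythmic, beside 2 of the mTOR pathway and 7 of the amino acid list. In FoxP1SkmKO KPC mice the counts were 5, 1, and 7. Besides Slc38a2 and Chac1, the arginine transporter Slc7a2 (CT36.6) and spermine synthase Sms (CT32.4) were rhythmic. The mTOR count was 4 without any single one of CT22 replicate 2, CT30 replicate 1, CT34 replicate 1, CT34 replicate 2, and CT38 replicate 1. With edgeR 11 glucocorticoid-responsive and 10 amino acid genes were rhythmic.

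In the lists of inflammatory genes, members passed mainly in the JAK-STAT list. Of 32 interferon-induced genes only Pml (a nuclear body protein, CT23.0) passed, and of 19 immediate early genes only Ccn1 (a matricellular protein, CT39.9, adjusted p = 0.00819 from the F test). The list of JAK-STAT and acute-phase genes had 4 of 27, with 11 at an unadjusted p under 0.05. Jak2 peaked at CT36.9 (adjusted p = 0.0111), Stat5a at CT22.9, Stat5b at CT27.4, and complement C3 at CT19.2, and so at 4 different parts of the cycle. With edgeR the counts were 11 of 27 for this list, 4 for the immediate early genes, and 0 for the interferon list. In WT control mice the F test on FPKM called 4, 4, and 2 in the same order. C3 ranged from 3.91 to 17.8 FPKM and was highest at CT18. Its call was lost in 9 of the 12 fits without 1 library (p up to 0.0211, n = 11) and without both CT18 libraries (p = 0.0407, n = 10).

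Of the genes of collagens and fibroblast matrix, 10 of 28 were rhythmic, with 22 at an unadjusted p under 0.05 against 21.1% of all tested genes. Of the 10, 8 peaked near CT22. Col5a3 (ENSMUSG00000004098, chromosome 9 of mm39, 20681346 to 20726363, minus strand), a fibrillar collagen chain, had 3.27 and 3.43 FPKM at CT18, 5.06 and 6.67 at CT22, 5.21 and 5.33 at CT26, 2.54 and 3.06 at CT30, 1.42 and 1.65 at CT34, and 2.24 and 2.20 at CT38. Its CT22 and CT26 libraries lay above all others, and its adjusted p was 0.00803. The basement membrane chains Col4a1 (CT23.7, 39.0% of the mean) and Col4a2 (CT24.3, 38.7%), which share a promoter, ran together, and Col6a1 peaked at CT21.6. In WT control mice 8 members of the list were rhythmic and in FoxP1SkmKO KPC mice 4. The count was 22 with edgeR, 16 without the library CT22 replicate 1, 6 without CT22 replicate 2, CT26 replicate 1, or CT34 replicate 1, and 5 without CT34 replicate 2. It was 6 without both CT18 and 3 without both CT34 libraries.

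Few genes of the contractile apparatus and the ribosome were called rhythmic. None of 13 fast-fiber, 11 slow-fiber, and 79 cytosolic ribosomal protein genes was rhythmic by the F test on FPKM, where 1, 1, and 5 had an unadjusted p under 0.05. The share over all tested genes was 8.83%, and the fiber lists are too short to be told from it. In WT control mice 0, 0, and 1 of these genes were rhythmic. With edgeR 4 ribosomal, 3 slow-fiber, and 0 fast-fiber genes passed. Without single libraries the ribosomal count was at most 3 (without CT22 replicate 1), and it was 10 without both CT18 libraries. Of 77 mitochondrial ribosomal genes 2 were rhythmic, Mrpl50 (CT33.5) and Mrpl23 (CT34.0), and of 24 genes of calcium handling, channels, and the neuromuscular junction 1, Kcnj11 (CT22.5), a subunit of the ATP-sensitive potassium channel. Mrpl23 lost its call in 10 of the 12 fits without 1 library, Mrpl50 in 3 of them and with edgeR, DESeq2, and the GC trend removed (p up to 0.0982, n = 12), and both without CT22 replicate 1 or CT30 replicate 2. Kcnj11 lost its call without CT22 replicate 2 or CT34 replicate 2. Foxp1 itself, at 0.629 FPKM on average, lay under the level filter and had p = 0.0145 (n = 12).

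In bulk muscle, fewer cells of a type and less RNA per cell cannot be told apart. The markers of muscle fibers summed to between 40040 and 52270 FPKM in the 12 libraries, and none of the 8 was rhythmic. The 9 macrophage markers summed to a mean of 64.9 FPKM at CT18, 52.2 at CT22, 32.4 at CT26, 22.6 at CT30, 20.8 at CT34, and 32.2 at CT38, with a range of 17.7 to 72.6 over libraries (12.7 to 47.5 in WT control mice), and 5 of the 6 tested ones were rhythmic. The 6 fibroblast markers followed a like course, from a mean of 69.8 FPKM at CT18 to 20.4 at CT34, with 1 of 5 tested rhythmic and a range of 19.1 to 75.7 over libraries (28.4 to 82.8 in WT control mice). The erythroid sum had a mean of 228 FPKM at CT18 and 136 FPKM at CT34, and endothelial markers lay between 71.1 and 96.5 FPKM. C3 and Ctsh peaked near the time of the macrophage sum, as did C1qc, which is itself a part of that sum. Hbb-bs is likewise a part of the erythroid sum. The fitted peaks of the macrophage, fibroblast, and erythroid sums were CT19.7, CT20.4, and CT19.4, and most rhythmic collagens peaked near CT22. That of the endothelial sum was CT22.9, with 2 of its 8 markers rhythmic. The fibroblast markers Col1a1, Col3a1, and Dcn are also members of the collagen list. The part of these cell types in the rhythms was not tested. Neutrophil markers stayed at or under 3.44 FPKM with Mpo and Elane at 0, lymphocyte markers at or under 0.579, markers of epithelial and KPC tumor cells at or under 0.969, and those of the exocrine pancreas at or under 0.0892 with Prss2, Cpa1, Pnlip, and Amy2a2 at 0.

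**Figure D4:**
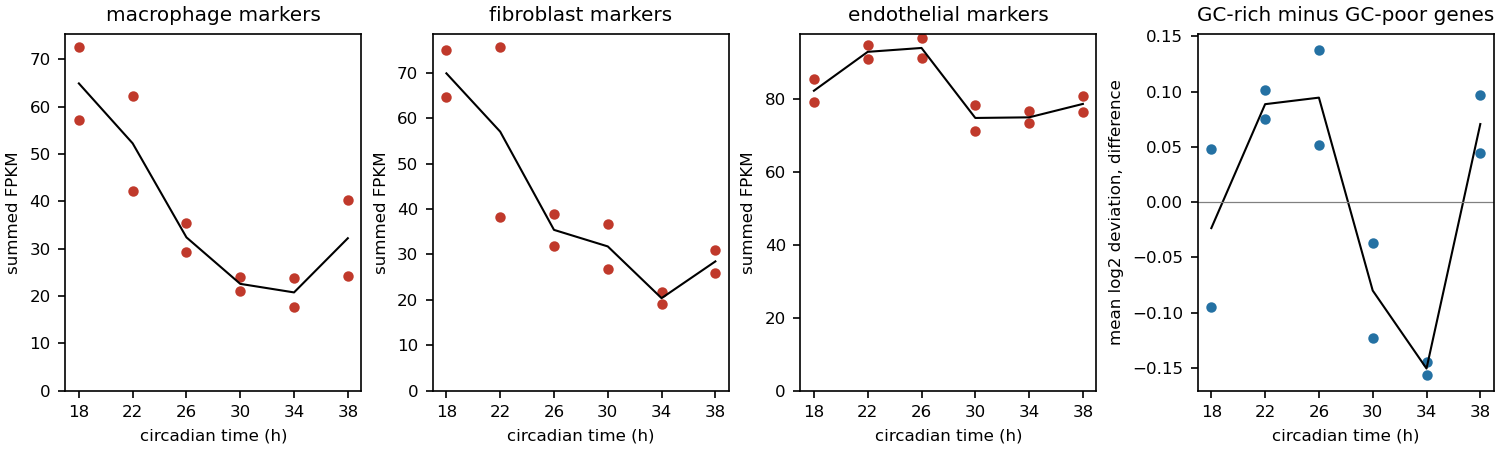
Summed FPKM of macrophage, fibroblast, and endothelial markers, and the difference in mean log2 deviation between GC-rich and GC-poor genes, against circadian time (h) in WT KPC muscle. Points are single libraries and lines join the means of the 2 mice; macrophage and fibroblast sums had their highest means at CT18 and their lowest at CT34, and both CT34 libraries had the lowest GC difference (-0.145 and -0.156).

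Phases were compared with those of the other mice. Of the 356 genes with an adjusted p under 0.05 in WT KPC muscle, 174 (48.9%) were rhythmic at an unadjusted p under 0.01 in WT control, 109 (30.6%) in FoxP1SkmKO KPC, and 156 (43.8%) in FoxP1SkmKO control mice. Whether or not they passed there, 82.6% had a peak in WT control within 3 h of that in WT KPC mice (45.3% of all tested genes), 78.4% in FoxP1SkmKO KPC (48.2%), and 84.6% in FoxP1SkmKO control mice (48.1%). These comparisons share the WT KPC libraries. The median distance between the peaks was 1.22 h, 1.27 h, and 1.18 h in the same order. The order Arntl, Dbp, Per2 was the same in these groups. Arntl peaked at CT22.5 in WT control and CT20.9 in FoxP1SkmKO KPC mice, Dbp at CT32.6 and CT31.2, and Per2 at CT35.4 and CT34.3. Nr1d1 peaked at CT28.5 in WT control mice, 1.29 h later than in WT KPC mice.

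For the difference in rhythm itself, the group by sinusoid terms were put to an F test (2 and 18 degrees of freedom, n = 24) for all 9985 genes. Against WT control mice 758 genes (7.59%) had an unadjusted p under 0.05 and none an adjusted p under 0.05 (lowest 0.0778, Benjamini-Hochberg). Limma gave 1 gene, edgeR 2, and DESeq2 3 of adjusted p under 0.05, with 763, 779, and 848 at an unadjusted p under 0.05. Against FoxP1SkmKO KPC mice the numbers were 473 genes (4.74%, no more than a threshold of 0.05 gives without any difference) and none (lowest 0.146). Leading the first was Lgmn (ENSMUSG00000021190, chromosome 12 of mm39, 102360343 to 102406072, minus strand), the lysosomal protease legumain, with 11.9 and 14.5 FPKM at CT18, 14.0 and 13.1 at CT22, 10.4 and 11.5 at CT26, 10.7 and 9.94 at CT30, 8.73 and 9.19 at CT34, and 10.8 and 10.7 at CT38. It was highest at CT18 and CT22 and lowest at CT34, with a peak at CT20.6 in WT KPC against CT27.9 in WT control mice, both rhythmic (p = 0.000740 and p = 0.000246, n = 12), and an unadjusted p of 7.79e-06 for the difference. Its adjusted p was 0.0778 on FPKM, 0.0457 with edgeR, 0.000422 with DESeq2, 0.0482 with limma on log2(FPKM + 1), and 0.0366 among genes of at least 5 FPKM. Legumain is abundant in macrophages, and the Lgmn peak in WT KPC mice fell between the 2 times with the highest macrophage marker sums. In WT control mice these sums were also highest at CT18 and CT22 (means of 37.1 and 37.7 FPKM). Lgmn, however, had its lowest mean there at CT18 (9.34 FPKM) and its highest at CT26 (11.9 FPKM). The part of macrophages in this difference was not tested. Ltbp3 (a latent TGF-beta binding protein, p = 4.18e-05), Chchd3 (a cristae organiser, p = 0.000384), Cd99l2 (a cell surface protein, p = 0.000400), and Dusp6 (an ERK phosphatase, p = 0.000716) followed (n = 24). Chchd3 and Cd99l2 both peaked at CT33.4 in WT KPC and more than 3 h earlier, at CT29.0 and CT29.4, in WT control mice.

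Against FoxP1SkmKO KPC mice, Nsun2 (an RNA methyltransferase, p = 1.46e-05) and Lingo3 (p = 5.36e-05) led, followed by Mcoln1 (a lysosomal channel, p = 0.000142), F2r (the thrombin receptor, p = 0.000315), and Klhl22 (a ligase adaptor, p = 0.000706), each with n = 24. Nsun2 had 6.42 and 6.40 FPKM at CT18, 6.83 and 6.55 at CT22, 6.78 and 6.86 at CT26, 7.12 and 7.42 at CT30, 7.33 and 7.54 at CT34, and 7.40 and 6.92 at CT38. It was low at CT18, with the highest mean at CT34, an amplitude of 6.77% of the mean, and a peak at CT32.8 against CT41.1 in FoxP1SkmKO KPC mice. The adjusted p of this difference was 0.146, and among the fits that left out 1 library it was under 0.05 without WT KPC CT22 replicate 1 (0.0445), WT KPC CT38 replicate 1 (0.0403), or FoxP1SkmKO KPC CT38 replicate 2 (0.0199). The rhythm of Nsun2 in WT KPC mice lost its call with limma, edgeR, and DESeq2 (p up to 0.0869, n = 12). Lingo3 ran from 2.58 to 7.07 FPKM in WT KPC mice and peaked at CT23.9, against CT21.4 in FoxP1SkmKO KPC mice.

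**Figure D5:**
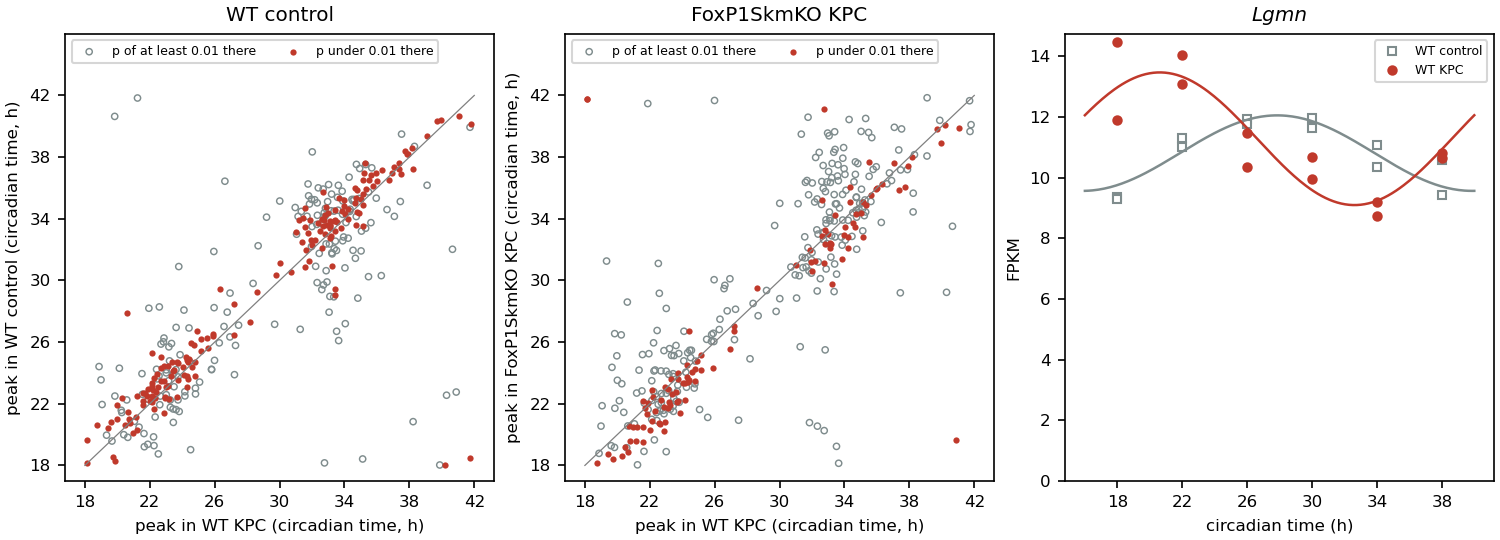
Fitted peak (circadian time, h) of the 356 genes of adjusted p under 0.05 in WT KPC muscle against their peak in WT control (left) and FoxP1SkmKO KPC mice (middle), filled where p was under 0.01 there, and FPKM of Lgmn by circadian time in WT KPC and WT control mice with the fitted sinusoids (right). Most genes lay near the line of equal peaks, 82.6% and 78.4% within 3 h, and Lgmn peaked at CT20.6 with and CT27.9 without tumors.

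Genes that the study names as gaining or losing a rhythm with KPC tumors were chosen by the study on these samples, so their counts are no independent evidence. All 11 tested genes of the first kind were rhythmic in WT KPC and none in WT control or FoxP1SkmKO KPC mice. Their difference in rhythm from WT control had an unadjusted p under 0.05 for 4 of the 11, and 6 of them peaked near CT34. Fcer1g (ENSMUSG00000058715, chromosome 1 of mm39, 171057141 to 171061934, minus strand), the common gamma chain of Fc receptors, ranged from 0.934 FPKM at CT34 to 3.64 FPKM at CT18, and Ube2b from 147 FPKM to 183 FPKM, the latter at CT34. With edgeR 6 of the 11 were rhythmic in WT KPC mice, and with the GC trend removed also 6. None of the 5 tested genes of the second kind was rhythmic in WT KPC mice by the F test on FPKM, where 4 had an unadjusted p under 0.05, and with edgeR all 5 were rhythmic.

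Promoter motifs were counted on either strand of the 300 bases from RefSeq. Among the 7416 tested genes with such a promoter, 12.6% held the E-box CACGTG, 0.863% a D-box (TTATGTAA or TTACGTAA), and 15.0% the receptor site AGGTCA. A gene was counted if any of its promoters held the motif. In all 32851 promoters of the table, each counted singly and with untested genes included, the shares were 7.15%, 1.06%, and 16.3%. These are not like for like with the shares of genes. The shares were 12.9%, 1.48%, and 16.7% of the 677 rhythmic genes with a promoter. By time of peak, the E-box was in 5.77% near CT18, 10.6% near CT22, 10.8% near CT26, 18.1% near CT30, 14.6% near CT34, and 16.7% near CT38. Of the 22 clock list genes with a promoter, 6 held an E-box and 6 a receptor site. A motif in this window is a match of letters and does not show binding.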

How the data were processed

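Poly(A)-selected RNA of tibialis anterior muscle was sequenced by the study's service provider, and groups were taken from the labels. The authors deposited FPKM for each gene and library and, in separate tables of comparisons, raw counts for the same libraries. Both are on build mm39. The study's methods name STAR and HTSeq, whereas the submitters' processing notes name HISAT2 2.0.5 and DESeq2 1.20.0. The labels do not settle whether libraries were directional, so overlapping antisense genes such as Nr1d1 and Thra could not be told apart. Columns with the authors' normalised counts, fold changes, and p-values were not used.

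For each gene with a mean of at least 1 FPKM, the FPKM of the 12 libraries were regressed by least squares on cosine and sine terms of a 24 h period, which an F test compared with a flat line (2 and 9 degrees of freedom). Genes were called rhythmic at an unadjusted p under 0.01, and Benjamini-Hochberg adjusted values over all tested genes are given beside it. Differences in rhythm were tested with the interaction of group and sinusoid over 24 libraries. Alternatives were log2(FPKM + 1) and log2(FPKM + 0.1) scales, limma 3.58.1 on log2(FPKM + 1), other filters, and TMM factors on FPKM. EdgeR 4.0.16 with TMM and DESeq2 1.42.0 were run on deposited counts (9970 genes, since 15 tested genes lacked a count in a table). Further alternatives were 1 coefficient per time, a replicate block, and leaving out single libraries. Removal of the GC trend and leaving out both CT18 or both CT34 libraries were chosen after seeing the data. R 4.3.3, Python 3.11.15, scipy 1.17.1, and statsmodels 0.14.6 were used. The sinusoid fits and the least-squares test of a difference in rhythm were tested on simulated data.

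The members, gene lists, and tests were chosen with earlier results of these data known. Named genes were all tested clock list genes, the 20 protein-coding genes of lowest p, the 10 of largest relative amplitude and the 10 of largest amplitude in FPKM among those of adjusted p under 0.05, up to 4 rhythmic genes of lowest p per list, the 5 of lowest p for each difference, and Foxp1. Symbols starting with Gm and a number or ending in Rik were left out of the ranked choices.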

Additional observations from a re-analysis of the deposited data

How the results depend on the processing

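The 2 mice per time and the single cycle sampled limit these rhythms, FPKM of low genes rests on few reads, and peaks between sampled times were interpolated. The number of genes rhythmic at an unadjusted p under 0.01 (882) was 541 with a filter of 5 FPKM and 436 without both CT34 libraries, and it ranged from 614 (without CT34 replicate 2) to 915 (without CT38 replicate 1) when 1 library was left out. The number at an adjusted p under 0.05 (356) was 595 with limma, 758 with edgeR, 1134 with DESeq2, 130 with no filter, 24 with 1 coefficient per time, 212 with the GC trend removed, 228 without both CT18 libraries, and 4 without both CT34 libraries, and it ranged from 103 (without CT34 replicate 2) to 339 (without CT22 replicate 1) when 1 library was left out. The share of rhythmic genes with a peak near CT22 or CT34 (59.6%) was 64.0% at an adjusted p under 0.05, 54.7% with the GC trend removed, 53.4% without both CT18 libraries, and 48.2% without both CT34 libraries, with 54.2% to 66.4% when 1 library was left out. With intervals begun at the sampled times, those from CT22 to CT26 and from CT34 to CT38 held 43.1%, a different stretch of the cycle. The fullest were then those that began at CT22 (220 genes) and CT30 (228 genes). Peaks of the other groups were not counted with these intervals. Genes with a difference in rhythm from WT control at an unadjusted p under 0.05 (758) numbered 1501 with no filter and 415 with a filter of 5 FPKM, with 482 (without WT control CT26 replicate 1) to 957 (without WT control CT38 replicate 2) when 1 library was left out. At an adjusted p under 0.05 this number (0) was 1 with log2(FPKM + 0.1), 1 with the filter of 5 FPKM, 1 with limma, 2 with edgeR, and 3 with DESeq2, with 0 to 1 when 1 library was left out. Against FoxP1SkmKO KPC mice the first count (473) was 1129 with no filter and 398 to 598 when 1 library was left out, and the second (0) was 0 to 1. Clock had its highest time mean at CT18 (p = 0.000451, n = 12) in place of a fitted peak at CT24.0 with 1 coefficient per time. Where no alternative's own construction shows the cause, the cause was not tested. Of 103 named rhythmic genes, 43 were called under every alternative run and 60 lost their call under at least 1.

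Replicate numbers did not pair the samples: over 15 pairs of times the correlation of same-numbered libraries' deviations lay between -0.112 and 0.109. With the replicate block 794 genes were rhythmic at p under 0.01 (747 of them shared with the fit without it) and 204 at an adjusted p under 0.05. The counts of a difference in rhythm under the block were 729 and 457, and 0 at an adjusted p under 0.05 in both comparisons.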

Other observations

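Differences in rhythm from WT control muscle are described here for 3 gene lists with few or no rhythmic members in WT KPC muscle. In each, the share of members with an unadjusted p under 0.05 for this difference lay above the 7.59% of all tested genes. No member passed the Benjamini-Hochberg adjustment on FPKM, and the lists were picked after their counts were seen. Other lists also lay above that share, among them JAK-STAT and acute-phase genes (29.6%) and the lysosome list (24%). It was 15.4% for fast-fiber and 10.4% for mitochondrial ribosomal genes. The genes named from the 3 lists were chosen after their values were seen. None had a rhythm with an unadjusted p under 0.01 in either group, and the peaks given are those of the fitted curves. Of 11 slow-fiber genes, which encode the contractile proteins of slow muscle, 6 (54.5%) had such a difference. Tnnt1 (slow troponin T) had a fitted peak at CT31.1 in WT KPC and at CT41.9 in WT control mice (p = 0.00562 for the difference), Myl2 at CT31.2 and CT39.9 (p = 0.00950), and Myh7 (slow myosin heavy chain) at CT31.6 and CT41.3 (p = 0.0111, n = 24 for each). Myh7 had an adjusted p of 0.0457 with edgeR and 0.00329 with DESeq2, and Tnnt1 of 0.0216 with DESeq2. The count was 6 on the log2 scale, 6 with edgeR, and 5 to 6 when 1 library was left out. In WT KPC mice alone only Tnnt1 of these had a rhythm with an unadjusted p under 0.05 (p = 0.0350, n = 12).

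Of 79 cytosolic ribosomal protein genes, 20 (25.3%) had a difference at an unadjusted p under 0.05, and 14 of these 20 had a rhythm with p under 0.05 in WT control mice. All 20 had their fitted peaks between CT24.9 and CT30.7 in WT control mice. None of the 20 was called rhythmic at p under 0.01 in either group (lowest p in WT control mice 0.0110 for Rpl18, F test, n = 12). In WT KPC mice only Rpl35 had a rhythm with p under 0.05. The fitted peak of Rpl12 was CT26.5 in WT control and CT18.2 in WT KPC mice (p = 0.00799 for the difference), Rpl35 at CT26.7 and CT34.2 (p = 0.00825), and Rplp0 at CT25.8 and CT41.4 (p = 0.00927, n = 24 for each). The rhythms themselves had p = 0.0889, p = 0.0423, and p = 0.146 in WT KPC mice (n = 12). The count was 20 on the log2 scale and 25 with edgeR. It was 5 without WT KPC CT38 replicate 1 or WT control CT26 replicate 2, 6 without WT control CT26 replicate 1, 10 without WT KPC CT26 replicate 2, 13 without WT control CT18 replicate 1, and 31 without WT control CT38 replicate 2. Many of these genes have processed copies elsewhere in the genome, which makes their counts uncertain.

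In fatty acid uptake and oxidation, 11 of 44 genes (25%) had a difference at an unadjusted p under 0.05. Mlycd (malonyl-CoA decarboxylase) had its fitted peak at CT34.6 in WT KPC and CT26.1 in WT control mice (p = 0.0113), Slc27a1 (a fatty acid transporter) at CT35.7 and CT26.5 (p = 0.0157), and Eci2 (an enoyl-CoA isomerase) at CT35.5 and CT27.4 (p = 0.0173, n = 24 for each). The rhythms themselves had p = 0.0803, p = 0.0395, and p = 0.0169 in WT KPC and p = 0.0637, p = 0.220, and p = 0.270 in WT control mice (n = 12). The count was 11 on the log2 scale, 11 with edgeR, and between 6 (without WT control CT26 replicate 1) and 14 (without WT KPC CT22 replicate 1) when 1 library was left out.

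Of 375 tested lncRNA genes 5 (1.33%) were rhythmic, and of 8995 protein-coding genes 847 (9.42%), a difference that was not tested. Norad, a long noncoding RNA that binds Pumilio proteins, peaked at CT33.1 in WT KPC mice with an amplitude of 14.2% of its mean of 60.8 FPKM (adjusted p = 0.00677, Benjamini-Hochberg, F test of the sinusoid), and at CT33.5 in WT control mice.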
